A study of Mus musculus with 24 samples.

Results

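Clones A1 and A2 are 2 lines of mouse embryonic fibroblasts (MEFs) that carry the same pair of gene knockouts, Lkb1 and Crtc2, and were grown here without treatment. The 3 libraries labelled DKO_A2 ctrl were compared with the 3 labelled DKO_A1 ctrl, so 6 of the 24 libraries of the series enter, and they were chosen by their labels alone. Both clones were made from Lkb1-/- MEFs immortalised by serial passage. Guides against the first exon of Crtc2 were introduced on a plasmid that also carries Cas9 and a green fluorescent marker, sorted single cells were expanded, and loss of the protein was checked by blotting. Both groups therefore lack Lkb1 and Crtc2, and each genotype label stands for the descendants of 1 sorted cell. Untreated Lkb1-/- MEFs (3 libraries), untreated wild-type MEFs (3 libraries) and the same clones stimulated with interleukin-1β (IL-1b) for 6 hours (3 libraries each) serve as reference levels. Comparing the clones asks how far 2 isolates of 1 nominal genotype differ before any stimulus. The labels do not say whether the 3 libraries of a clone came from separate cultures. The p-values therefore measure only the spread between libraries of the same group, pooled over all 24 libraries.

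LKB1 (gene Stk11) is a kinase that switches on the salt-inducible kinases, SIKs. These hold the CRTC coactivators in the cytoplasm, and without LKB1 the dephosphorylated CRTC proteins enter the nucleus and join the transcription factor CREB. MEFs are connective tissue cells that secrete collagens, proteoglycans and growth factors, contract through actin and myosin, and answer IL-1b with cytokines and chemokines. Positional genes of the embryo, such as those of the Hox, Fox and Tbx families, keep different patterns in fibroblasts from different body regions.

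Each of the 6 libraries held between 39814837 and 45379872 read pairs on genes. Values are given as CPM, the number of read pairs of a gene per 1000000 read pairs on genes after scaling with edgeR's TMM factors, and errors are SD with n = 3. The first principal component of the 6 libraries carried 56.4% of their variance and separated the clones, with A1 between −45.0 and −42.6 and A2 between 41.6 and 45.9. Across genes, correlations of log2 CPM were 0.972 to 0.978 between libraries of A1 and A2, against 0.990 to 0.993 within A1 and 0.985 to 0.993 within A2. They were 0.972 to 0.976 between A1 and Lkb1-/- libraries and 0.972 to 0.978 between A2 and Lkb1-/- libraries. The library numbered 1 stood apart in both clones, with 3.25% (A1) and 4.32% (A2) of its counts on mitochondrial genes against 1.27% to 2.0% in the other 4. In all 8 groups of the series the library numbered 1 held the highest such share. It was 3.11% in untreated wild-type and 3.03% in untreated Lkb1-/- MEFs, whose libraries numbered 2 and 3 held 1.36% to 1.92%. Fibroblast markers were high in both clones (summed CPM of 10 genes 6597 to 7234 in A1 and 4752 to 6796 in A2), although Thy1 and Lum were at 0 to 2 counts in every library. Summed markers of other lineages were 0.24 to 0.53 CPM for epithelium, 2.33 to 3.71 for endothelium and 11.9 to 17 for leukocytes. Cdh1, Cdh5, Ptprc, Adgre1, Myod1, Sox2, Adipoq and Ibsp, defining markers of epithelium, endothelium, leukocytes, muscle, neural stem cells, fat and bone, did not exceed 2 counts in any of the 6 libraries. Other members of these lists were expressed. Neural and glial markers summed to 131 to 137 CPM in A1 and 72.5 to 77.3 CPM in A2, most of it nestin (Nes, 131 and 68.3 CPM, called lower), although Tubb3 of the same list was called higher (2.44 to 5.63 CPM, log2 fold change 1.20). Cartilage markers summed to 187 to 249 CPM (mostly Sox9), bone markers to 68 to 94.3 CPM (mostly Runx2) and fat markers to 14.1 to 22 CPM over the 6 libraries, with 1 cartilage marker higher and 1 lower, 1 fat marker higher and 2 lower, and no bone marker called. Their part in the results was not tested.

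The targeted genes were counted in all 6 libraries. Crtc2 stood at 45.2, 41.1 and 42.4 CPM in A1 and 50.6, 48.9 and 50 CPM in A2, a little higher in A2 (log2 fold change 0.22, SE 0.07, edgeR FDR = 0.016), against 81.1 ± 1.8 CPM in Lkb1-/- and 58.4 ± 2.44 CPM in wild-type MEFs. Stk11 stood at 21.8, 21.6 and 20.7 CPM in A1 and 18.9, 17.4 and 17.9 CPM in A2 (log2 fold change −0.24, SE 0.07, edgeR FDR = 0.0096), near the 17.3 ± 1.24 CPM of Lkb1-/- and below the 86 ± 1.68 CPM of wild-type MEFs. The clones did not overlap for either gene, but each gene missed the threshold in 2 of the 6 fits on 5 clone libraries. A gene count does not show the edited allele, so these values check the Lkb1 label against wild type but not the Crtc2 label of either clone.

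Of 17522 genes tested, 5692 (32.5%) were called different between the untreated clones at an edgeR FDR under 0.05. Of these, 2767 (15.8%) were higher and 2925 (16.7%) lower in A2. Most differences were small, with a median absolute log2 fold change of 0.51 among called genes. A change of more than 2-fold was seen for 656 genes higher and 664 lower, and of more than 4-fold for 175 higher and 233 lower. The 3 libraries of A2 lay wholly above those of A1 for 3352 genes (19.1%) and wholly below for 3640 (20.8%). The same fit called 6181 genes (35.3%) between A1 and Lkb1-/- MEFs and 5655 (32.3%) between A2 and Lkb1-/- MEFs, which share the Lkb1-/- libraries. Against a required change of more than 2-fold, tested as such, 369 genes remained (146 higher, 223 lower).

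The 12 genes with the largest rise in A2, among called genes of at least 10 CPM in the higher clone whose libraries did not overlap, were led by a glycosylation enzyme. Galnt13, an enzyme that starts mucin-type O-glycosylation (chr2:54436317-55118309), stood at 0.415, 0.432 and 0.506 CPM in A1 and 11.7, 15.1 and 15 CPM in A2 (log2 fold change 4.94, SE 0.28, edgeR FDR = 2.5e-10). Xlr, of the X-linked lymphocyte-regulated family (chrX:53777118-53797706), was at 2.61, 1.7 and 2.44 CPM in A1 and 31.1, 30.8 and 33.8 CPM in A2 (log2 fold change 3.82, SE 0.17, edgeR FDR = 1.8e-12). Both were below 6 CPM in Lkb1-/- MEFs, at 3.35 ± 0.4 and 5.71 ± 0.588 CPM, so A1 lay below and A2 above the parental level. Ptn, the heparin-binding growth factor pleiotrophin, was at 0.927, 0.936 and 0.804 CPM in A1 and 7.98, 16.5 and 12.5 CPM in A2 (log2 fold change 3.79, SE 0.32, edgeR FDR = 1.3e-07). Coro2a, a coronin that binds actin, was at 0.829, 0.84 and 1.13 CPM in A1 and 7.86, 9.33 and 12.9 CPM in A2 (log2 fold change 3.42, SE 0.32, edgeR FDR = 7.5e-08). Here the Lkb1-/- libraries, at 17, 18.7 and 21.6 CPM, lay above both clones. Mgst1, a membrane-bound glutathione transferase, was at 4.63, 4.7 and 6.66 CPM in A1 and 31.9, 39.1 and 46.2 CPM in A2 (log2 fold change 2.87, SE 0.21, edgeR FDR = 3e-09), and Lkb1-/- MEFs, at 36.6 ± 5.15 CPM, were at the level of A2. The other 7 of the 12 genes with the largest rise were Tmem151b (3.12), Fam189a2 (3.11), Apol6 (2.83), Tmem26 (2.79), the glutaminyl cyclase gene Qpct (2.61), Scrn1 (2.53) and Phactr1, a regulator of actin and protein phosphatase 1 (2.42). In Fam189a2 and Phactr1 the A2 libraries were uneven, at 25, 48.7 and 73.6 CPM and 30.3, 96.5 and 97.8 CPM, with library 1 lowest in both.

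The 12 largest falls in A2, chosen in the same way, were led by Gpc4 and Fam198b. Gpc4, a glypican that carries heparan sulfate on the cell surface (chrX:52053021-52165252), was at 26.7, 36.2 and 36.5 CPM in A1 and 0.0403, 0.0463 and 0.22 CPM in A2 (log2 fold change −8.31, SE 0.31, edgeR FDR = 2.4e-13). Fam198b (chr3:79884533-79946280) was at 17.5, 19.9 and 23.1 CPM in A1 and 0.0403, 0.0463 and 0.176 CPM in A2 (log2 fold change −7.81, SE 0.31, edgeR FDR = 4e-13). Both were expressed in A1 and close to 0 in every A2 library. Lkb1-/- MEFs held 2.9 ± 0.396 CPM of Gpc4 and 0.511 ± 0.0312 CPM of Fam198b, below A1 and above A2 in each case. Dpysl3, which codes for a cytoskeletal phosphoprotein of the collapsin response mediator family (chr18:43320984-43438286), was at 77.4, 95.8 and 127 CPM in A1 and 3.4, 5.44 and 6.91 CPM in A2 (log2 fold change −4.26, SE 0.27, edgeR FDR = 3.3e-10). Col8a1, a short-chain collagen (chr16:57624258-57754737), was at 125, 135 and 131 CPM in A1 and 12.6, 8.29 and 6.32 CPM in A2 (log2 fold change −3.84, SE 0.21, edgeR FDR = 5.7e-11), and Lkb1-/- MEFs, at 10.3 ± 2.91 CPM, resembled A2. Wnt5a, a ligand of the non-canonical Wnt pathway (chr14:28504750-28527448), was at 35.9, 44.9 and 51.1 CPM in A1 and 3, 3.7 and 5.11 CPM in A2 (log2 fold change −3.48, SE 0.25, edgeR FDR = 1.8e-09), again with a low level in Lkb1-/- (1.08 ± 0.262 CPM). Sulf1, which removes sulfate from heparan sulfate chains, was at 31.4, 42.7 and 38.3 CPM in A1 and 2.01, 2.45 and 4.29 CPM in A2 (log2 fold change −3.68, SE 0.30, edgeR FDR = 1.1e-08). The remaining 6 of the 12 were C920009B18Rik (−4.70), the Wnt antagonist Dkk2 (−4.53), AC124518.1 (−4.29), the BMP antagonist Chrdl1 (−4.05), smooth muscle actin Acta2 (−3.53) and Perp, a desmosome protein and p53 target (−3.46). Perp was at 24.9, 29.7 and 25.4 CPM in A1 and 2.08, 2.13 and 3.06 CPM in A2 and at 5.71 ± 0.0743 CPM in Lkb1-/- and 26.2 ± 1.75 CPM in wild-type MEFs.

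**Figure D1:**
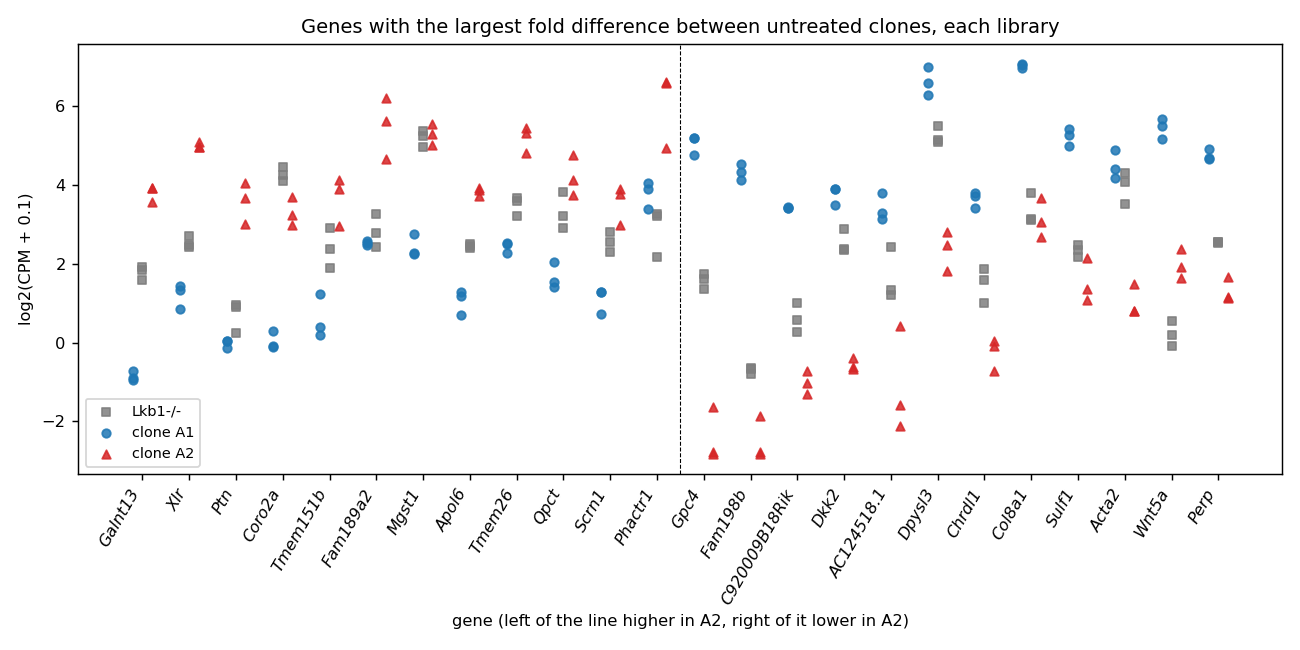
Expression of the 12 genes with the largest rise and the 12 with the largest fall in clone A2 among called genes of at least 10 CPM in the higher clone, as log2(CPM + 0.1) in each untreated library of A1 (circles), A2 (triangles) and Lkb1-/- MEFs (squares). The A1 and A2 points of a gene do not overlap, which the choice of genes required, and the Lkb1-/- points lie between them for Gpc4 and Dpysl3 but beside A2 for Mgst1 and Col8a1.

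Among genes that changed more than 2-fold, the most abundant were also compared. The 5 most abundant that fell were Bgn, the proteoglycan biglycan (1332 ± 108 CPM in A1 and 634 ± 123 CPM in A2), the fibrillar collagen Col5a2 (1124 ± 181 CPM in A1 and 531 ± 124 CPM in A2), tropomyosin Tpm1 on chromosome 9 (1026 ± 103 CPM in A1 and 288 ± 23 CPM in A2), the actin cross-linker Actn1 on chromosome 12 (1019.9 ± 56.3 CPM in A1 and 423 ± 23.5 CPM in A2) and Timp3, an inhibitor of matrix metalloproteinases (851 ± 136 CPM in A1 and 291 ± 57.2 CPM in A2). Their log2 fold changes were −1.07, −1.08, −1.83, −1.27 and −1.55, with edgeR FDR of 4.8e-05, 0.00047, 1.8e-12, 1.6e-10 and 3.9e-07. The 5 most abundant that rose were the matricellular gene Ccn3 (239 ± 48.1 CPM in A1 and 605 ± 298 CPM in A2), the protease inhibitor Serpine2 (236 ± 25.6 CPM in A1 and 499 ± 86.7 CPM in A2), the BMP antagonist Grem1 (103 ± 24.5 CPM in A1 and 412 ± 92.2 CPM in A2), xanthine dehydrogenase Xdh on chromosome 17 (128 ± 13.6 CPM in A1 and 284 ± 48.8 CPM in A2) and the imprinted gene Peg10 (127 ± 23 CPM in A1 and 274 ± 90.6 CPM in A2). Their log2 fold changes were 1.34, 1.08, 2.0, 1.15 and 1.11, with edgeR FDR of 0.0044, 2.4e-05, 3.2e-07, 9.6e-05 and 0.00046. For Ccn3 the A2 libraries were uneven, at 263, 803 and 749 CPM, and library 1 lay within the A1 range (201 to 293 CPM). Grem1 was at 131, 92.9 and 85.3 CPM in A1, 324, 405 and 508 CPM in A2 and 189, 223 and 195 CPM in Lkb1-/- libraries, so that the parental level lay between the clones. The housekeeping gene Actb itself was lower in A2 (11484 ± 772 CPM in A1 and 8965 ± 840.2 CPM in A2, log2 fold change −0.36, SE 0.11, edgeR FDR = 0.012), while Gapdh stood at 980.0 ± 82.7 CPM in A1 and 924 ± 114 CPM in A2 and was not called (log2 fold change −0.08, SE 0.12, edgeR FDR = 0.65).

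A few genes reached at least 1 CPM in every library of 1 clone and did not exceed 3 counts in any library of the other. A1 lacked 4 such genes. Wt1, a transcription factor of kidney and gonad development, had no count in A1 and stood at 1.55 ± 0.475 CPM in A2, at least 21.7-fold higher. AI593442 was likewise at 0 in A1 and at least 20.2-fold higher in A2. Spry3, a Sprouty inhibitor of receptor tyrosine kinase signalling, had counts of 1, 0 and 1 in A1 and 1.90 ± 0.278 CPM in A2, a ratio of 120.5 with an exact 95% counting interval of 33.0 to 1000, and Podxl2, a sialomucin gene, had 3 counts in each A1 library and was 17.7 times higher (9.14 to 39.5). A2 lacked 6 genes. Bmyc, a relative of Myc, had counts of 0, 1 and 0 in A2 and 7.45 ± 1.37 CPM in A1, a ratio of 1034 (185 to 40895). Another 3 had no count in A2, among them 2810429I04Rik on chromosome 13 (at least 32.4-fold lower in A2) and the diacylglycerol kinase Dgkk (at least 25.3-fold). Msl3l2 had 1 count in A2 and Cpeb1, an RNA-binding protein gene, had 2, with 203 (35.9 to 8049) and 94.2 (25.7 to 784) times more in A1. Bounds set the clone without counts at a floor of 3 counts per library, and bounds and intervals cover counting error only. In Lkb1-/- MEFs, Wt1 stood at 2.09 ± 0.473 CPM, Spry3 at 3.65 ± 0.377 CPM and Bmyc at 4.45 ± 0.152 CPM, so these 3 were lacking in 1 clone but not in the parental genotype. Dgkk, at 0.054 ± 0.0121 CPM there, was instead near the floor in Lkb1-/- MEFs and expressed in A1. The clone lacking a gene stayed at 6 counts or fewer for it after IL-1b in each of the 10 cases, with Podxl2 the highest. The other clone held at least 1 CPM after IL-1b in 9 of the 10, but AI593442, on chromosome 9, was at 0.148 ± 0.0436 CPM in A2 there, against 1.44 ± 0.165 CPM untreated.

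The differences were spread unevenly over the chromosomes. Over all 17522 genes the median log2 fold change was 0.015, but on 5 nuclear chromosomes the median lay more than 0.2 away from it. The 15 tested mitochondrial genes, with a median of 0.27, had no member called and are not counted among these. Chromosome 17 was higher in A2, with a median of 0.46 over 856 genes, of which 471 (55%) were called higher and 27 lower. Chromosome 13 was higher as well (0.23, 248 of 755 called higher and 59 lower). Chromosomes 18 (−0.37, 232 of 485 called lower), 12 (−0.31, 263 of 649 called lower) and 9 (−0.29, 409 of 983 called lower) were lower in A2. On these last 3 chromosomes 71 genes in all were called higher. Together the 5 chromosomes held 21.3% of the tested genes and 31.3% of the called ones.

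The shifts were seen in every library and in most windows along each chromosome. Over genes of at least 5 CPM, the median difference of log2(CPM + 1) from the A1 mean on chromosome 17 was 0.38, 0.46 and 0.48 in the 3 A2 libraries and −0.03, 0.01 and 0.02 in the A1 libraries. On chromosome 18 it was −0.45, −0.36 and −0.30 in A2 and −0.06, 0.01 and 0.05 in A1, and on chromosome 9 −0.40, −0.32 and −0.28 in A2 and −0.05, 0.01 and 0.04 in A1. These medians did not overlap between the clones on any of the 5 chromosomes, although with 3 libraries against 3 an exact permutation test cannot go below p = 0.1. The summed CPM of all genes of chromosome 17 did overlap (52892 to 64000 in A1 and 61957 to 70966 in A2, two-sided exact permutation p = 0.2). In windows of 10 Mb holding at least 20 tested genes, the median was above 0 in all 9 windows of chromosome 17 (0.37 to 0.50) and all 12 of chromosome 13 (0.12 to 0.38). It was below 0 in all 13 windows of chromosome 9 (−0.38 to −0.25), and all 9 of chromosome 18 (−0.45 to −0.23). On chromosome 12 it lay between −0.43 and −0.21 in 11 of 12 windows, and the window from 20 to 30 Mb, with 42 genes, had a median of −0.0083, near that of all genes. On chromosomes 4 and 10, whose medians were −0.13 and −0.12, windows lay on both sides of 0, from −0.28 to 0.08 and from −0.26 to 0.02.

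Against Lkb1-/- MEFs the shift stood in A1 for some chromosomes and in A2 for others. Both clones are read against the same 3 Lkb1-/- libraries, so their values are only set side by side. On chromosome 17 the median against Lkb1-/- was −0.38 for A1 and 0.07 for A2. Chromosome 9 likewise differed in A1 (0.32) more than in A2 (0.03). On chromosome 13 A2 carried the difference (0.19, against −0.05 for A1). On chromosomes 12 and 18 the clones lay on opposite sides of Lkb1-/-, at 0.18 and 0.17 for A1 and −0.14 and −0.19 for A2. Some other chromosomes differed from Lkb1-/- in the same direction in both clones. The medians for A1 and A2 were −0.37 and −0.31 on chromosome 8 and 0.39 and 0.27 on chromosome 10. They were 0.29 and 0.34 on chromosome 11 and −0.35 and −0.31 on chromosome 19. The libraries hold RNA, so no DNA value stands beside these medians. For a gene on the 5 chromosomes whose change has the sign and about the size of its chromosome's median, the gene's own change and the shift cannot be told apart, so the chromosome is named below wherever it is one of them. Some genes there changed by far more than the median or against it, and are given as such.

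**Figure D2:**
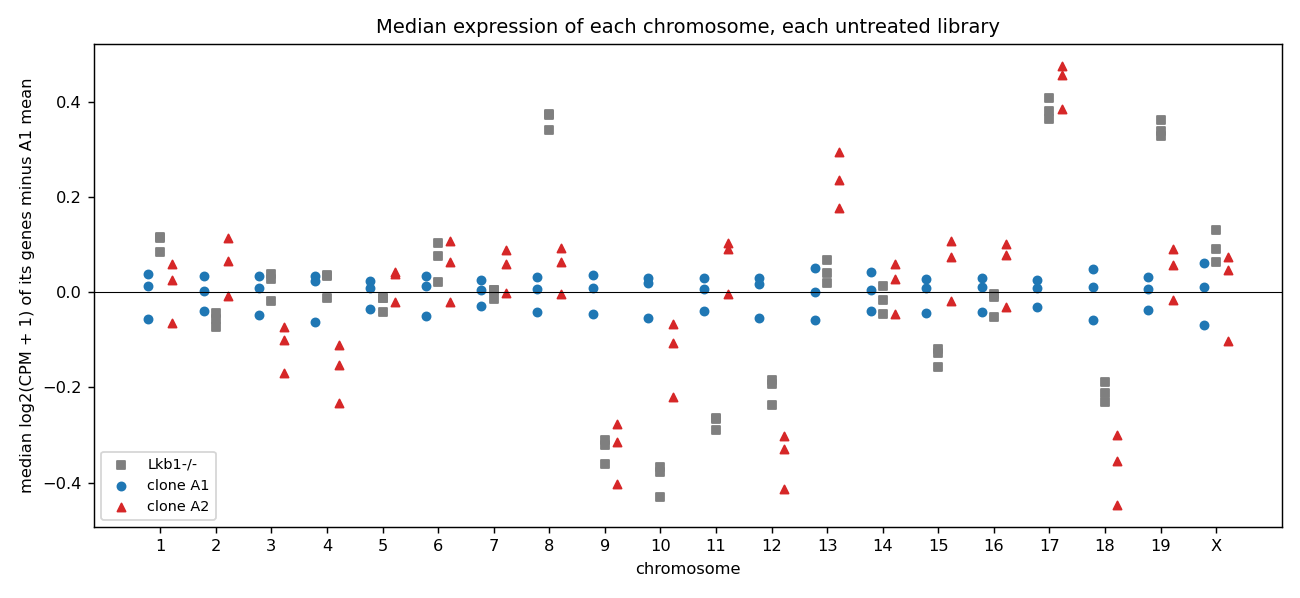
Median over the tested genes of at least 5 CPM on each chromosome of log2(CPM + 1) minus the mean of the A1 libraries, 1 point per untreated library of A1 (circles), A2 (triangles) and Lkb1-/- MEFs (squares). On chromosome 17 the A2 and Lkb1-/- libraries lie between 0.36 and 0.48 above A1, and on chromosomes 9, 12 and 18 both lie below A1.

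Gene lists for pathways of fibroblasts were counted next, each read against the 15.8% of all tested genes called higher and the 16.7% called lower. The 2 lists with the largest share called were contractile genes (15 of 20, 14 of them lower) and Hippo pathway genes (13 of 17, 11 of them lower). Chemokines and clustered protocadherins had no member called higher, and 8 of 21 and 12 of 34 called lower. Collagens, matrix glycoproteins, proteoglycans and Wnt genes were called in both directions, more often lower. Patterning transcription factors (23 of 73 higher, 14 lower) and NRF2 genes (8 of 24 higher, 2 lower) were called more often higher. Sterol synthesis genes had the smallest share called, with 5 of 24, of which 4 were lower.

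**Figure D3:**
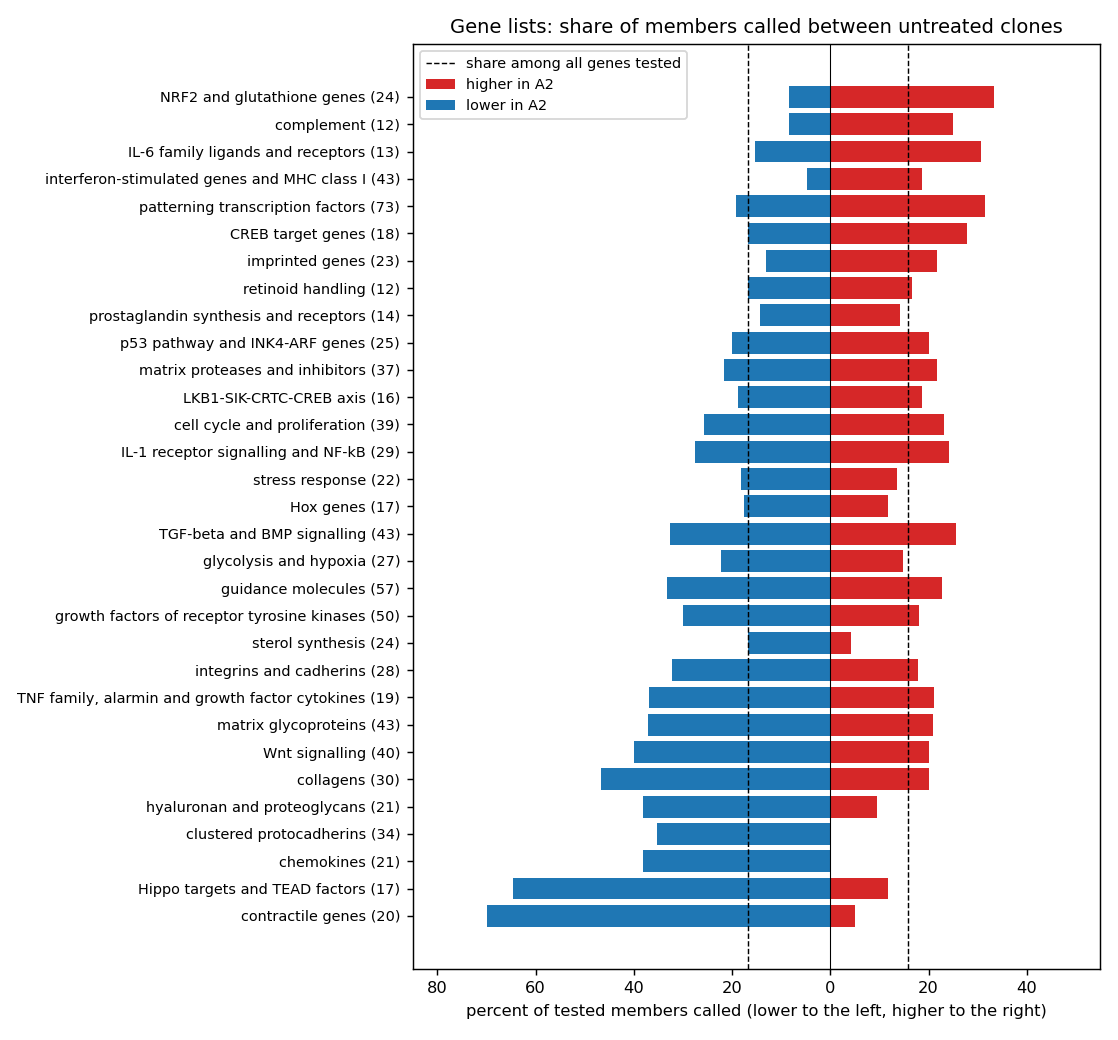
Percent of the tested members of each list (number tested in parentheses) called higher in A2 (right) or lower in A2 (left) at an edgeR FDR under 0.05, for lists with at least 10 tested members, with dashed lines at the 15.8% higher and 16.7% lower of all 17522 genes. Contractile genes reach 70% lower and Hippo genes 64.7% lower.

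Contractile genes, which build and regulate the actomyosin fibres of smooth muscle and of activated fibroblasts, were lower in A2, with 14 of 20 tested members called lower, 1 higher and a median log2 fold change of −0.61. Acta2 (chr19:34241090-34255590) stood at 21.1, 29.6 and 17.9 CPM in A1 and 1.65, 2.69 and 1.63 CPM in A2 (log2 fold change −3.53, SE 0.34, edgeR FDR = 1.1e-07). Tagln, the actin-binding protein transgelin on chromosome 9, was at 9.22, 11.9 and 6.57 CPM in A1 and 0.302, 0.463 and 0.132 CPM in A2 (log2 fold change −4.94, SE 0.50, edgeR FDR = 2.1e-07). Counted without regard to strand Tagln was not called (log2 fold change −1.42, edgeR FDR = 0.081). Myl9, the regulatory light chain of smooth muscle myosin, was at 10.6, 14.2 and 8.69 CPM in A1 and 0.745, 1.55 and 1.03 CPM in A2 (log2 fold change −3.33, SE 0.32, edgeR FDR = 9.6e-08). Wild-type MEFs held far more Acta2, at 546 ± 158 CPM, than any of the knockout groups, with 15.8 ± 4.14 CPM in Lkb1-/-. For Myl9 the Lkb1-/- libraries (0.938 ± 0.35 CPM) were at the level of A2, whereas for Acta2 they were near A1. Tpm1, on chromosome 9, fell from 925, 1024 and 1130.5 CPM to 314, 271 and 279.9 CPM (log2 fold change −1.83, SE 0.08, edgeR FDR = 1.8e-12), and calponin Cnn2 was at 236, 278 and 254 CPM in A1 and 97.5, 143 and 149 CPM in A2 (log2 fold change −0.98, SE 0.14, edgeR FDR = 1.7e-05). Smoothelin (Smtn, −0.69), caldesmon (Cald1, −0.53), myosin light chain kinase (Mylk, −0.42), Synpo2 (−1.55), Tpm4 (−0.30) and Pdlim7 (−0.19, chromosome 13) were lower too. The member called higher was desmin (Des, 0.379 to 0.914 CPM, log2 fold change 1.25, edgeR FDR = 0.02), an intermediate filament protein of muscle, which missed the threshold in 4 of the 6 fits on 5 clone libraries. Calponin Cnn1 (0.17, chromosome 9) and Tpm2 (−0.04) were not called. On chromosomes other than the 5 named above, 11 of 16 tested members were lower and 1 higher. Without the libraries numbered 1, a setting chosen after seeing the data, the list had 14 lower and 1 higher. The skeletal muscle markers Myod1, Myf5, Myog and Actc1 did not exceed 2 counts in any library, and their list with Des summed to 0.36 to 0.46 CPM in A1 and 0.48 to 1.21 CPM in A2.

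Hippo pathway genes fell with them. Ccn1 and Ccn2, secreted matricellular proteins and well-known targets of the YAP coactivator and its TEAD partners that are also on the contractile list, were at 239.8, 341 and 221 CPM in A1 and 72.2, 76 and 43.2 CPM in A2 (log2 fold change −2.07, SE 0.24, edgeR FDR = 1.7e-06) and at 29, 35 and 38.5 CPM in A1 and 5.48, 9.82 and 10.8 CPM in A2 (log2 fold change −1.98, SE 0.23, edgeR FDR = 1.4e-06). Ankrd1, another such target, was at 32.9, 33.8 and 30.5 CPM in A1 and 10.5, 7.29 and 5.64 CPM in A2 (log2 fold change −2.05, SE 0.25, edgeR FDR = 2.9e-06). No A2 library reached the lowest A1 library for any of the 3. Amotl2, which binds YAP, was at 319, 374 and 319 CPM in A1 and 129, 184 and 129.9 CPM in A2 (log2 fold change −1.19, SE 0.13, edgeR FDR = 6.9e-07, chromosome 9). The pathway's own components moved less, with Yap1 at −0.32 (chromosome 9), the TEAD factor Tead1 at −0.53 and the kinase Lats1 at −0.43. Tead2 (116 to 194 CPM, log2 fold change 0.74) and Tead3 (13.1 to 29.2 CPM, 1.16, chromosome 17) were instead called higher. Of the 17 members 11 were lower and 2 higher, with a median of −0.42, and 7 of 12 were lower on the other chromosomes. Without the libraries numbered 1 the counts were 10 lower and 2 higher.

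The promoters of 6 of these genes, which fell together, are shown, chosen among those that hold a motif match. The windows cover 250 bases before the start site (RefSeq sequences, build GRCm38.p6) and are written in the direction of transcription. A pair of motifs was searched on both strands, the MCAT element GGAATG, which TEAD factors are known to bind, and the CArG box bound by serum response factor. The CArG box was counted only in its strict form, CC followed by 6 letters A or T and then GG. MCAT matches occurred in 12.6% of all 32851 windows, in 7 of 19 windows (36.8%) of tested contractile genes and in 10 of 18 windows (55.6%) of tested Hippo genes. Strict CArG boxes occurred in 1.47% of all windows, in 2 of 19 of contractile genes and in none of 18 of Hippo genes. Looser forms were neither counted nor marked, such as ccctatatgg and ccttgtttgg in the Acta2 window, which each differ from the strict form by a letter. Windows were found for 17 of the 20 contractile genes and 14 of the 17 Hippo genes, and Ccn1 is counted in both lists. Of the 11 contractile genes called lower that have a window, 6 held an MCAT match and 2 a CArG box, and of 9 such Hippo genes 6 held an MCAT match. A match is a run of letters, not evidence of binding. Capitals mark MCAT matches in Acta2 (chr19:34255374-34255623, minus strand), Ccn1 (chr3:145649986-145650235, minus strand), Ankrd1 (chr19:36119845-36120094, minus strand) and Tpm1 (chr9:67049214-67049463, minus strand), and CArG boxes in Myl9 (chr2:156775214-156775463, plus strand) and Cnn2 (chr10:79988350-79988599, plus strand).
Acta2: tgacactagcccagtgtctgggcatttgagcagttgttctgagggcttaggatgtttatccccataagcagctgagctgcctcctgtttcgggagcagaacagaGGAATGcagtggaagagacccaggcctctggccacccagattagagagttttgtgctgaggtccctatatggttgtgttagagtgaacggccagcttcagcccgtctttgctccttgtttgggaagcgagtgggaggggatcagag
Ccn1: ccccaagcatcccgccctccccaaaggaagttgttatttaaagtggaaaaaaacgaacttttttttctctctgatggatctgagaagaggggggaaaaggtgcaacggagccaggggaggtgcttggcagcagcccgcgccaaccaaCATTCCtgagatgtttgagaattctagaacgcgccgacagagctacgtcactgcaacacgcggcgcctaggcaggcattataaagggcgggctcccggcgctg
Ankrd1: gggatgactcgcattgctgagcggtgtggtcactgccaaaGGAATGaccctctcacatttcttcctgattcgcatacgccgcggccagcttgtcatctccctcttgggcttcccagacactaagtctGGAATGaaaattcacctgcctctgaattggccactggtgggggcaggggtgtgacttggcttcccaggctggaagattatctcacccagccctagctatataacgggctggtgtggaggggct
Tpm1: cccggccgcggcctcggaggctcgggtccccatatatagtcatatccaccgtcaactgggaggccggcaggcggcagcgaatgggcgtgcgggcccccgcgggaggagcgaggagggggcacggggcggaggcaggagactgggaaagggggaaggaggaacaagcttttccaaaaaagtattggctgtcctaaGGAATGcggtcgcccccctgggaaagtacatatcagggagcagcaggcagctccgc
Myl9: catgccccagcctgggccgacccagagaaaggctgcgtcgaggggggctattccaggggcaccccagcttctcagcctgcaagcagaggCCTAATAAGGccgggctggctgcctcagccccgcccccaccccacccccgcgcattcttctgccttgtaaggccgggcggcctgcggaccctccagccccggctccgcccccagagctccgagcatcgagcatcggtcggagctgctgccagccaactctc
Cnn2: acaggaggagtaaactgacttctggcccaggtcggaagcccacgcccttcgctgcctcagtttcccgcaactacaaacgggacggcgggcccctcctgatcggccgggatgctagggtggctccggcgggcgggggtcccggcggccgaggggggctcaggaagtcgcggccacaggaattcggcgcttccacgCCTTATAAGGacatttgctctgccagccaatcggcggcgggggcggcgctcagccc

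The MCAT match of Acta2 ended 141 bases before the start site, that of Ccn1 98 bases and that of Tpm1 51 bases, while Ankrd1 had a pair, ending 205 and 118 bases before it. The CArG box of Myl9 ended 152 and that of Cnn2 47 bases before the start.

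**Figure D4:**
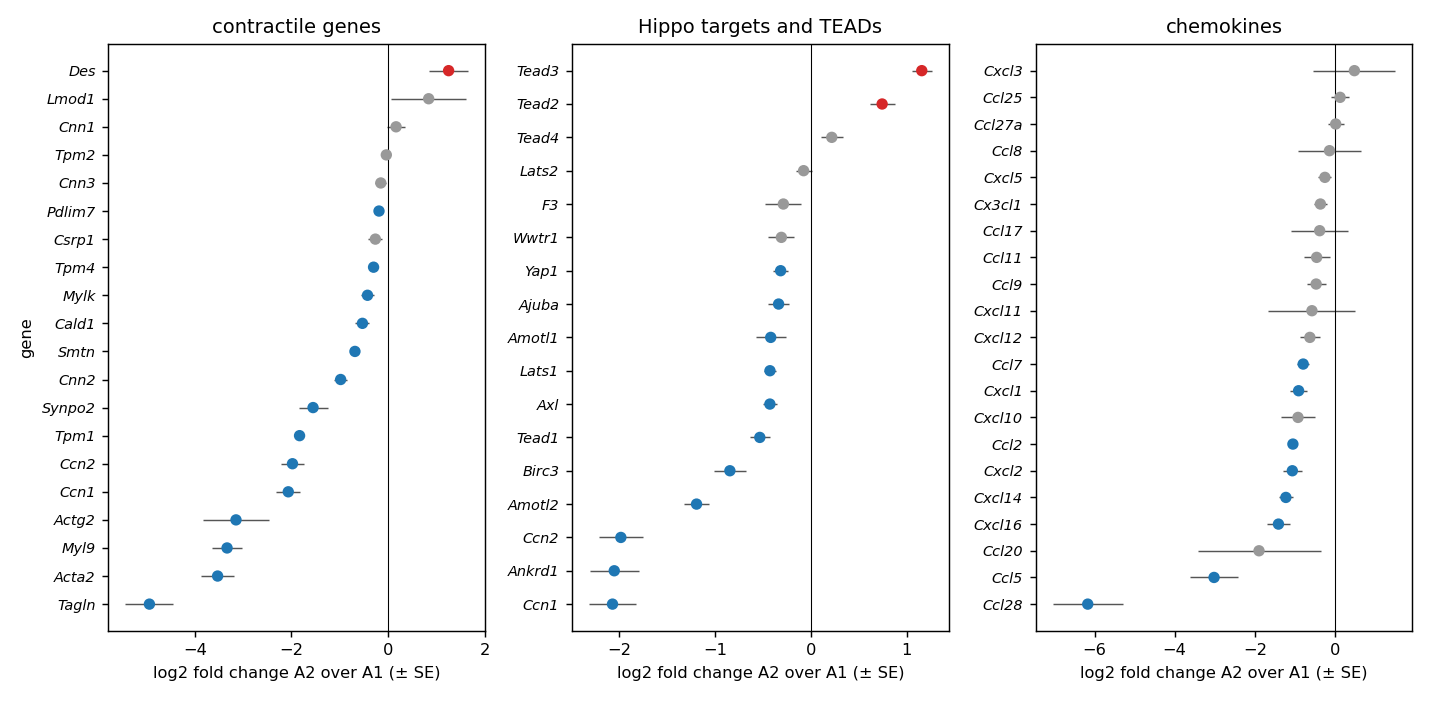
Log2 fold change of clone A2 over A1, untreated, with its SE, for the tested members of 3 lists. Blue points were called lower and red points higher in A2 at an edgeR FDR under 0.05, and grey points were not called. In the contractile list Tagln (−4.94) and Acta2 (−3.53) lie lowest and in the Hippo list Ccn1 (−2.07). In the chemokine list Ccl28 lies lowest, at a fitted value that is no bound because the gene had no count in A2.

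Collagens were lower in A2 in 14 of 30 tested cases and higher in 6, with a median of −0.42. Besides Col8a1 and Col5a2, the basement membrane collagen Col18a1 was at 101, 101 and 119.8 CPM in A1 and 29.7, 32.1 and 41.5 CPM in A2 (log2 fold change −1.64, SE 0.19, edgeR FDR = 1.4e-06) and the minor fibrillar chain Col11a1 at 61.5, 84.8 and 80.8 CPM in A1 and 18.1, 39.3 and 42.7 CPM in A2 (log2 fold change −1.18, SE 0.31, edgeR FDR = 0.0051). Col5a3 and Col12a1, both on chromosome 9, fell by 1.42 and 1.31 on the log2 scale. Col1a2, a chain of the main fibrillar collagen type I, was called lower (246 ± 41.3 CPM in A1 and 128 ± 42.3 CPM in A2, −0.95), whereas its partner Col1a1 was not (2699 ± 308 CPM in A1 and 2147 ± 600.4 CPM in A2, log2 fold change −0.33, SE 0.21, edgeR FDR = 0.24). The basement membrane chains Col4a1 (0.39) and Col4a2 (0.39), neighbours on chromosome 8, rose, and so did Col6a3 (0.43) and the low-level Col24a1 (1.04 to 2.9 CPM, 1.47). Col27a1, another fibrillar chain, fell at a low level (4.66 to 1.64 CPM, −1.51). On the other chromosomes 11 of 26 were lower and 6 higher. Without A1 library 3 or without A2 library 3 the list had 13 lower and 3 higher.

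Matrix glycoproteins were lower in 16 of 43 and higher in 9 (median −0.18). Tenascin C (Tnc), a glycoprotein of remodelling tissue, was at 146, 117 and 116 CPM in A1 and 43.6, 28.4 and 32.3 CPM in A2 (log2 fold change −1.86, SE 0.17, edgeR FDR = 7.4e-08). The microfibril protein Fbn2 was at 180.4, 249 and 285 CPM in A1 and 46.7, 77.9 and 98.1 CPM in A2 (log2 fold change −1.68, SE 0.26, edgeR FDR = 3.9e-05, chromosome 18). Laminin Lamb1 (441 to 196 CPM, −1.17, chromosome 12), fibronectin Fn1 (2485 to 1645 CPM, −0.60), Fbn1 (−0.84), perlecan Hspg2 (−0.83) and thrombospondin Thbs1 (−0.82) were lower as well. The fibulins Fbln5 (chromosome 12) and Efemp1 were close to the detection limit in A2. Fbln5 had 0.976, 1.2 and 1.01 CPM in A1 and 2 counts in all in A2, a ratio of 73.4 (exact 95% counting interval 19.9 to 612), and Efemp1 had 0.878, 0.936 and 1.24 CPM in A1 and no count in A2, at least 15.6-fold lower. In the other direction Fbln1 was at 77.7, 99 and 93.4 CPM in A1 and 156, 241 and 265 CPM in A2 (log2 fold change 1.29, SE 0.20, edgeR FDR = 4.1e-05), Thbs2 rose on chromosome 17 (1.19 to 5.68 CPM, 2.25), and Tgfbi rose on chromosome 13 (192 to 337 CPM, 0.82). The fibulins Fbln1 and Fbln5 and the thrombospondins Thbs1 and Thbs2 thus changed in opposite directions. The other leading rises were at low levels, in Sparcl1 (0.205 to 1.59 CPM, 2.93), Matn4 (0.244 to 1.15 CPM, 2.21) and Tnxb (1.65 to 5.87 CPM, 1.83, chromosome 17).

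Proteoglycan and hyaluronan genes were lower in 8 of 21 cases and higher in 2 (median −0.24). On the other chromosomes 5 of 14 were lower and 1 higher, and the median there was 0.02. Beside Gpc4 and Bgn, the small leucine-rich proteoglycan osteoglycin (Ogn, chromosome 13) was at 21.7, 29.8 and 34.1 CPM in A1 and 1.53, 5.33 and 5.13 CPM in A2 (log2 fold change −2.84, SE 0.40, edgeR FDR = 1.1e-05), although the median of its chromosome was higher in A2, and its relative Omd, nearby on that chromosome, fell as well (1.8 to 0.641 CPM, −1.50). Cd44, the hyaluronan receptor (759 to 484 CPM, −0.65), and syndecan Sdc2 (−0.62) were lower. The syndecan Sdc3 (157 to 225 CPM, 0.51) and versican (Vcan, chromosome 13), a large hyaluronan-binding proteoglycan, were higher, and Vcan rose from 345, 505 and 577 to 562, 1050.3 and 1063 CPM (log2 fold change 0.91, SE 0.23, edgeR FDR = 0.0039). Of the matrix proteases and their inhibitors, 8 of 37 were called in each direction, and 5 were higher without A1 library 2 or without A2 library 3. Collagenase Mmp13 was at 21.8, 11.4 and 26.6 CPM in A1 and 52.6, 64.5 and 174 CPM in A2 (log2 fold change 2.28, SE 0.50, edgeR FDR = 0.0012) and rose although chromosome 9 was lower, while Mmp28 (3.14 to 5.93 CPM, 0.91) and the membrane protease Mmp14 (201 to 301 CPM, 0.58) rose as well. Of the ADAMTS family, Adamts12 (−0.86) fell and Adamts10 on chromosome 17 (0.76) rose. Inhibitor Timp3 fell, as given above, and Timp1 was at −0.46 (105 to 76.1 CPM). Among integrins and cadherins 9 of 28 were lower, led by Cdh18 (40.2, 51.5 and 40.2 CPM in A1 and 6.53, 10.1 and 8.63 CPM in A2, log2 fold change −2.39, SE 0.22, edgeR FDR = 7.9e-08) and with integrin Itgb8 (59.7 to 27.8 CPM, −1.11, chromosome 12) and N-cadherin Cdh2 (154 to 78.2 CPM, −0.97, chromosome 18) next. Integrin subunits Itga2 (1.36 to 3.2 CPM, 1.23, chromosome 13), Itga6 (22.4 to 44.9 CPM, 1.01) and Itgb3 (9.27 to 21.3 CPM, 1.20) were among the 5 that rose. Without A1 library 3 or without A2 library 1, 3 members of the list were called higher.

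Wnt pathway genes were lower in 16 of 40 tested cases and higher in 8 (median −0.42). The ligands Wnt5a and Wnt10b (11.2, 11.2 and 10.7 CPM in A1 and 2.92, 2.15 and 2.84 CPM in A2, log2 fold change −2.06, SE 0.13, edgeR FDR = 4.4e-10) fell, whereas Wnt4, a ligand at 0.122, 0 and 0.184 CPM in A1 and 1.81, 2.36 and 2.82 CPM in A2, rose (log2 fold change 4.46, SE 0.54, edgeR FDR = 2e-06). Axin2, a feedback inhibitor that is itself a target of β-catenin, was at 5.78, 4.78 and 8.04 CPM in A1 and 0.645, 0.602 and 0.925 CPM in A2 (log2 fold change −3.09, SE 0.28, edgeR FDR = 6.7e-08), and Lkb1-/- MEFs held 0.386 ± 0.0793 CPM. Among antagonists, Dkk2 was at 14.8, 11.1 and 14.7 CPM in A1 and 0.665, 0.532 and 0.55 CPM in A2 (log2 fold change −4.53, SE 0.31, edgeR FDR = 9.1e-10), Sfrp2 fell (48.2 to 19.8 CPM, −1.29), and Apcdd1 fell on chromosome 18 (−1.35). Both agonists and antagonists were thus among the genes that fell. The receptors split, with the non-canonical receptor Ror1 lower (6.23 to 2.04 CPM, −1.61) and its relative Ror2 higher on chromosome 13 (89.6 to 139 CPM, 0.63). The agonist Rspo3 (0.79) and the transcription factor Lef1 (0.77) rose.

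TGF-beta and BMP genes were lower in 14 and higher in 11 of 43 cases (median −0.03). On the 5 chromosomes named above 8 of 12 were lower and none higher (median −0.83), whereas on the others 6 of 31 were lower and 11 higher (median 0.15). Without A1 library 1 the list had 13 lower and 7 higher. Of the ligands, Tgfb2 (15.7 to 7.57 CPM, −1.05), Tgfb3 (51.4 to 26.5 CPM, −0.96, chromosome 12), Bmp4 (19.3 to 9.34 CPM, −1.05), Gdf5 (−1.30) and the activin chain Inhba (−1.04, chromosome 13) fell, while Tgfb1 rose (74.3 to 110.5 CPM, 0.57). The signalling receptor Tgfbr2 on chromosome 9 was at 287, 338 and 402 CPM in A1 and 118, 148 and 167 CPM in A2 (log2 fold change −1.25, SE 0.13, edgeR FDR = 2.5e-07), the latent TGF-beta binding protein Ltbp2 fell on chromosome 12 (6.45 to 0.524 CPM, −3.62), and the co-receptor Tgfbr3 rose (0.60). BMP antagonists moved in opposite directions. Chrdl1 was at 10.6, 13.7 and 13.1 CPM in A1 and 0.504, 0.833 and 0.925 CPM in A2 (log2 fold change −4.05, SE 0.28, edgeR FDR = 1.7e-08) and noggin (Nog) at 2.61, 4.73 and 3.63 CPM in A1 and 0.403, 0.695 and 0.374 CPM in A2 (log2 fold change −2.90, SE 0.33, edgeR FDR = 9.9e-07), against the rise of Grem1. The BMP target genes Id1 (24.1 to 45.6 CPM, 0.92) and Id3 (89.1 to 125 CPM, 0.49) were higher in A2.

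Growth factors and receptors of the receptor tyrosine kinase class were lower in 15 of 50 cases and higher in 9 (median −0.15). Igf1 was at 3.9, 6.86 and 5.7 CPM in A1 and 0.322, 0.857 and 0.704 CPM in A2 (log2 fold change −3.13, SE 0.52, edgeR FDR = 7.8e-05), the EGF receptor ligand Hbegf at 38.5, 42.6 and 37.1 CPM in A1 and 12.5, 7.48 and 6.54 CPM in A2 (log2 fold change −2.15, SE 0.23, edgeR FDR = 4.7e-07, chromosome 18), and the neurotrophic factors Gdnf (62.2 to 22.4 CPM, −1.48) and Bdnf (37 to 15.4 CPM, −1.27) were lower too. Pdgfd, a platelet-derived growth factor on chromosome 9, had 0.561, 0.72 and 0.483 CPM in A1 and no count in A2, at least 9.0-fold lower. Ret, the signalling receptor for Gdnf, fell too (9.23 to 3.04 CPM, −1.60). The receptors Erbb3 (1.14 to 2.76 CPM, 1.27), Fgfr2 (40.3 to 83.3 CPM, 1.05) and Ddr1 (42.3 to 75.6 CPM, 0.84, chromosome 17), angiopoietin Angpt1 (135 to 228 CPM, 0.75) and Pdgfa (0.75) were higher. Guidance molecules of the semaphorin, ephrin, slit and netrin families, which steer growing axons and migrating cells, were lower in 19 and higher in 13 of 57 cases, and lower in 18 and higher in 20 without A2 library 1. The secreted semaphorin Sema3a was at 191, 209 and 196 CPM in A1 and 39.2, 55.7 and 51.6 CPM in A2 (log2 fold change −2.02, SE 0.10, edgeR FDR = 1.6e-11), and the ephrin receptor Epha1 (12.3 to 4.07 CPM, −1.60), netrin Ntn1 (367 to 191 CPM, −0.94) and the netrin receptor Unc5c (125 to 48.3 CPM, −1.37) fell. The transmembrane semaphorin Sema6d (5.25 to 14.5 CPM, 1.46) and the secreted Sema3g (1.34 to 3.63 CPM, 1.44) rose, and 5 ephrin-A genes rose as well, of which Efna2 lies on chromosome 10 (0.86), Efna5 lies on chromosome 17 (0.77) and Efna1, Efna3 and Efna4 lie together on chromosome 3 (0.33, 0.72 and 0.39).

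Chemokines, small secreted proteins that attract leukocytes, were lower or not called, with 8 of 21 tested members lower, none higher and a median of −0.63. Ccl2, which attracts monocytes, was at 567, 649.6 and 547 CPM in A1 and 314, 302 and 235 CPM in A2 (log2 fold change −1.05, SE 0.10, edgeR FDR = 1.7e-07). Ccl7, its neighbour on chromosome 11, was at 501, 546 and 462 CPM in A1 and 359.6, 281 and 229 CPM in A2 (log2 fold change −0.79, SE 0.14, edgeR FDR = 0.00019). Both clones were above the 192 ± 26.9 CPM and 157 ± 20.9 CPM of Lkb1-/- MEFs, and A1 further above than A2. The neutrophil attractant Cxcl1 was at 16, 17.6 and 11.6 CPM in A1 and 9.69, 8.31 and 6.03 CPM in A2 (log2 fold change −0.91, SE 0.20, edgeR FDR = 0.0016) and Cxcl14 (chromosome 13) at 8.68, 9.03 and 12.3 CPM in A1 and 3.61, 4.56 and 4.67 CPM in A2 (log2 fold change −1.23, SE 0.18, edgeR FDR = 4.2e-05). Ccl5 (1.15, 1.66 and 1.15 CPM in A1 and 0.0403, 0.116 and 0.33 CPM in A2, log2 fold change −3.02, SE 0.60, edgeR FDR = 0.00053), Cxcl2 (−1.07) and Cxcl16 (−1.41) were low in both clones, under 4 CPM, and Ccl28 on chromosome 13 had 0.268, 0.264 and 0.0919 CPM in A1 and no count in A2. Cxcl12, which retains blood-forming cells in marrow, stood at 177, 238 and 247 CPM in A1 and 95.3, 179 and 155 CPM in A2 and was not called (edgeR FDR = 0.06). Without A2 library 1 the median was −0.98, with 8 lower. Without the libraries numbered 1, 10 of 21 were lower. The leukocyte markers Ptprc, Adgre1 and Itgam did not exceed 1 count in any of the 6 libraries, and Cd68, Csf1r and Cd14 were not called.

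Cytokines of other families were called in both directions. In the IL-6 family the ligand Lif was at 14.2, 16 and 11.3 CPM in A1 and 6.04, 4.84 and 3.81 CPM in A2 (log2 fold change −1.49, SE 0.16, edgeR FDR = 3.5e-07). Its receptor Lifr was at 68, 82 and 78 CPM in A1 and 116, 219 and 219 CPM in A2 (log2 fold change 1.28, SE 0.24, edgeR FDR = 0.00025) and the related receptor Osmr at 156, 163 and 154 CPM in A1 and 209.7, 280.4 and 263 CPM in A2 (log2 fold change 0.67, SE 0.13, edgeR FDR = 0.00036), so Lif was lower and both receptors higher in A2. Il6ra also rose (19.8 to 32.3 CPM, 0.71), Il11ra1 fell (13.5 to 8.8 CPM, −0.62), the ligand Ctf1 rose slightly (0.44), and the shared signalling chain Il6st (chromosome 13) was at 499 ± 43.4 CPM in A1 and 552 ± 82.7 CPM in A2 (not called). Il6 itself was under 1 CPM in every library of both clones. Csf1, the growth factor of macrophages, was at 740.5, 783 and 576 CPM in A1 and 376, 365 and 262 CPM in A2 (log2 fold change −1.06, SE 0.15, edgeR FDR = 1.5e-05). The lymphoid cytokines Tslp (0.97 to 2.88 CPM, 1.57, chromosome 18) and Il7 (9 to 15.3 CPM, 0.77) rose, and so did Tnfsf10, the death ligand TRAIL (0.426 to 1.38 CPM, 1.68), while Il15 (1.09 to 0.415 CPM, −1.40) fell and Vegfa on chromosome 17 was at 38 ± 3.46 CPM in A1 and 50 ± 6.38 CPM in A2 (log2 fold change 0.39, SE 0.15, edgeR FDR = 0.049).

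Genes of IL-1 receptor signalling and NF-kB were called higher in 7 and lower in 8 of 29 cases, and higher in 4 and lower in 7 without A1 library 3. Il1rl1, the receptor of IL-33, was at 942, 656 and 711 CPM in A1 and 159, 85.2 and 93.1 CPM in A2 (log2 fold change −2.78, SE 0.20, edgeR FDR = 1.5e-09), and the 676 ± 66.4 CPM of Lkb1-/- MEFs were at the level of A1. Il1r1, which binds IL-1b itself and lies on the same chromosome, was higher in A2 instead (93.2, 100.2 and 83.4 CPM in A1 and 116, 146 and 126 CPM in A2, log2 fold change 0.49, SE 0.14, edgeR FDR = 0.01). The inhibitors Tnfaip3 (60, 71.9 and 53.4 CPM in A1 and 20.9, 23.8 and 21.2 CPM in A2, log2 fold change −1.49, SE 0.13, edgeR FDR = 4.1e-08) and Nfkbia (115, 142 and 113 CPM in A1 and 68.4, 76 and 66.7 CPM in A2, log2 fold change −0.81, SE 0.11, edgeR FDR = 1.2e-05, chromosome 12) are themselves induced by NF-kB, and both were lower. Nfkb1 (−0.55), Nfkb2 (−0.35), Relb (−0.36) and Rel (−0.27) were lower by less, and Rela was not called (0.05). Irak3, a kinase-like inhibitor of the receptor complex, rose (2.49, 3.55 and 3.75 CPM in A1 and 6.31, 9.38 and 11.4 CPM in A2, log2 fold change 1.46, SE 0.26, edgeR FDR = 0.00017). Of the prostaglandin genes Ptgs2, the inducible cyclooxygenase, was at 99.6, 92.6 and 71.5 CPM in A1 and 26.3, 17.8 and 15.3 CPM in A2 (log2 fold change −2.15, SE 0.27, edgeR FDR = 3.1e-06), against 128 ± 42 CPM in Lkb1-/- MEFs. The prostaglandin E synthase Ptges (0.64 to 1.36 CPM, 1.08) and the receptor Ptger2 (1.19 to 2.48 CPM, 1.06), both low, rose.

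Of 16 genes of the LKB1, SIK, CRTC and CREB axis, on which the knockouts act, 3 were higher (18.8%) and 3 lower (18.8%), with a median of 0.07, shares near those of all genes (15.8% and 16.7%). Without A2 library 1, 7 were higher and 2 lower. Sik3 was at 137, 143 and 128 CPM in A1 and 92.3, 107 and 93 CPM in A2 (log2 fold change −0.48, SE 0.07, edgeR FDR = 1.8e-05) and Sik2 at −0.26, both on chromosome 9, and Sik1 on chromosome 17 was not called (0.25). Crtc3, a relative of the deleted coactivator, was at 22.4, 24.2 and 26.4 CPM in A1 and 26.4, 36.6 and 37.2 CPM in A2 (log2 fold change 0.46, SE 0.13, edgeR FDR = 0.0085) and Crtc1 at 0.16 (not called). The CREB binding partner Ep300 rose (279 to 347 CPM, 0.32), and Creb1, Atf1 and Crebbp were not called. Among 18 known CREB target genes 5 were higher and 3 lower (median 0.18), but 2 and 2 without A1 library 1, A1 library 2 or A2 library 3 and 3 and 3 without A2 library 2. The nuclear receptor gene Nr4a2 (9, 7.27 and 11.4 CPM in A1 and 9.79, 14.4 and 18.6 CPM in A2, log2 fold change 0.63, SE 0.20, edgeR FDR = 0.02) and the phosphodiesterase genes Pde4d (119 to 183 CPM, 0.62, chromosome 13), Pde4b (0.39) and Pde3b (0.40) rose with Cited2 (211 to 294 CPM, 0.48), while the coactivator Ppargc1a (2.37 to 1.36 CPM, −0.81), the phosphatase Dusp1 (17.1 to 11.3 CPM, −0.60, chromosome 17) and Gadd45b (25.8 to 16 CPM, −0.69) fell. Nr4a1 and Fos stood at 0.39 and 0.12 (Fos on chromosome 12) and were not called.

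Patterning transcription factors were higher in 23 and lower in 14 of 73 tested cases (median 0.09). Foxq1 (chromosome 13) was at 40.2, 38.8 and 33.5 CPM in A1 and 117, 154 and 147 CPM in A2 (log2 fold change 1.89, SE 0.13, edgeR FDR = 1.1e-09), Nkx3-2 rose at a low level (1.64 to 4.19 CPM, 1.34), Sox5 was at 29.9, 29.7 and 28.4 CPM in A1 and 56.6, 78.3 and 75.5 CPM in A2 (log2 fold change 1.26, SE 0.13, edgeR FDR = 4.2e-07), and the limb and jaw genes Dlx1 (5.39 to 13 CPM, 1.27) and Dlx2 (7.74 to 12.6 CPM, 0.71), neighbours on chromosome 2, rose together. Barx2 (12.9, 19.4 and 22.7 CPM in A1 and 1.81, 3.33 and 5.7 CPM in A2, log2 fold change −2.34, SE 0.39, edgeR FDR = 0.00017) and Tbx20 (2.9 to 0.247 CPM, −3.54), both on chromosome 9, Foxd1 (9.59 to 2.37 CPM, −2.02, chromosome 13) and Foxf1 (8.55 to 2.21 CPM, −1.95) fell. On the other chromosomes 15 of 51 were higher and 6 lower. Of 17 tested Hox genes 2 (11.8%) were higher and 3 (17.6%) lower, shares near those of all genes, and all 5 belong to the HoxA cluster. Without A1 library 1, A2 library 2 or A2 library 3 the number called higher was 1. Hoxa5 (−0.56), Hoxa6 (−0.72) and Hoxa7 (28.2 to 14.6 CPM, −0.95) fell, and Hoxa11 (0.32) and Hoxa13 (46.4, 47.6 and 52.6 CPM in A1 and 72.2, 113 and 117 CPM in A2, log2 fold change 1.04, SE 0.18, edgeR FDR = 0.00011) rose. Hoxa2 (−0.84), Hoxa3 (−0.01), Hoxa4 (−0.35), Hoxa9 (0.14) and Hoxa10 (0.14) were not called. Of 23 imprinted genes 5 were higher and 3 lower (3 and 3 without A1 library 1 or without A2 library 2), with Plagl1 (3.22 to 7.93 CPM, 1.30) and Cdkn1c (24 to 36.7 CPM, 0.61) rising beside Peg10. On chromosome 17 the antisense RNA Airn rose (2.37 to 5.44 CPM, 1.20) and its overlapping gene Igf2r fell (258 to 209.5 CPM, −0.30), and Nespas, antisense at the Gnas locus, fell (5.04 to 1.59 CPM, −1.66). Counts were taken by strand.

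The called members of some lists lay mostly on the 5 chromosomes. Of 43 interferon-stimulated and MHC class I genes 8 were higher and 2 lower, and 6 of the 8 lie on chromosome 17. The number called lower was 1 without A2 library 1 or A2 library 3, 0 with the newer quasi-likelihood method of edgeR, 7 when the fit held the compared libraries alone and 8 with no filter on low counts. The 6 called higher on chromosome 17 were the proteasome subunit Psmb8 (0.317, 0.696 and 0.873 CPM in A1 and 6.61, 7.48 and 11.2 CPM in A2, log2 fold change 3.73, SE 0.50, edgeR FDR = 6.8e-06), its relative Psmb9 (2.0), the peptide transporters Tap1 (2.98, 3.05 and 3.52 CPM in A1 and 5.36, 8.64 and 8.85 CPM in A2, log2 fold change 1.26, SE 0.37, edgeR FDR = 0.013) and Tap2 (1.22), and the class I heavy chains H2-D1 (0.65) and H2-Q4 (0.65). Psmb8 changed by far more than the median of its chromosome (0.46), and H2-D1 by little more. Reads of the class I heavy chains are shared among near-identical genes, so their split is uncertain. Nlrc5, which activates class I genes and lies on chromosome 8, was also higher (10, 10 and 9.49 CPM in A1 and 17, 20.2 and 20.7 CPM in A2, log2 fold change 0.97, SE 0.26, edgeR FDR = 0.0056), as was Mx1 at a low level (0.226 to 1.05 CPM, 2.19), while Oasl1 fell (1.01 to 0.235 CPM, −2.11). On chromosomes other than the 5 named, 2 of 31 members were higher and 2 lower, and Isg15 (0.33) and Irf1 (0.10) were not called. Clustered protocadherins, adhesion proteins encoded by neighbouring genes on chromosome 18, were lower in 12 of 34 cases, led by Pcdhb21 (5.7 to 1.19 CPM, −2.26). Their median was −0.27, beside −0.37 for the whole chromosome, in the fit reported. Under the alternatives 7 to 14 members were called lower. The Y-linked genes Uty, Ddx3y, Kdm5d and Eif2s3y were expressed in both clones, with Uty called higher (53.1, 56.3 and 59.1 CPM in A1 and 71.1, 74.6 and 75.6 CPM in A2, log2 fold change 0.39, SE 0.08, edgeR FDR = 0.00063), and Xist was under 1 CPM in both.

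Proliferation genes were called about as often in each direction, 9 higher and 10 lower of 39, with a median of −0.01. The G1 cyclins Ccnd1 (148, 101 and 112 CPM in A1 and 86.8, 47.3 and 44.3 CPM in A2, log2 fold change −1.02, SE 0.25, edgeR FDR = 0.0037) and Ccnd2 (7.66, 5.78 and 5.72 CPM in A1 and 1.65, 0.926 and 1.28 CPM in A2, log2 fold change −2.30, SE 0.32, edgeR FDR = 1.2e-05) and their kinase Cdk6 (174 to 87.2 CPM, −1.0) were lower. Pcna, a clamp of the replication fork (178 ± 13.4 CPM in A1 and 261 ± 16.3 CPM in A2, 0.55), Mcm6 (0.36), Mcm7 (0.37) and Ccne1 (0.35) were among the 9 higher, and the division marker Mki67 was not called (648 ± 29.6 CPM in A1 and 635 ± 47.3 CPM in A2, log2 fold change −0.03, SE 0.07, edgeR FDR = 0.8). Of the NRF2 and glutathione genes, which detoxify reactive compounds, Nqo1 (41.5, 36.2 and 40.9 CPM in A1 and 54.2, 54.3 and 55.2 CPM in A2, log2 fold change 0.46, SE 0.09, edgeR FDR = 0.00025), Hmox1 (66.1 to 84.7 CPM, 0.36), Gclc (0.31, chromosome 9) and Gstm1 (0.74) were among the 8 higher, and the NRF2 inhibitor Keap1 on chromosome 9 was lower (−0.38). In the p53 list 5 of 25 were called in each direction. The cell cycle inhibitor Cdkn1a on chromosome 17 was at 4.39, 3.77 and 4.94 CPM in A1 and 8.74, 12.8 and 16.4 CPM in A2 (log2 fold change 1.53, SE 0.24, edgeR FDR = 5e-05) and Trp53inp1 at 18.6, 23 and 25.9 CPM in A1 and 43.8, 91.1 and 97.5 CPM in A2 (log2 fold change 1.78, SE 0.36, edgeR FDR = 0.00064), both higher, against the falls of Perp and of the kinase Plk2 (236 to 126 CPM, −0.91, chromosome 13). Glycolysis and hypoxia genes were higher in 4 and lower in 6 of 27, among them Aldoc (1.58) and Adm (−2.72). Stress response genes were higher in 3 and lower in 4 of 22, complement genes in 3 and 1 of 12, led by the inhibitor Cd55 (0.389 to 2.09 CPM, 2.42) and C4b on chromosome 17 (0.958 to 4.47 CPM, 2.22), and retinoid genes in 2 and 2 of 12. Sterol genes were lower in 4 and higher in 1 of 24. Of all tested genes 15.8% were called higher and 16.7% lower. Near those shares were the p53 (20% and 20%), glycolysis and hypoxia (14.8% and 22.2%), stress response (13.6% and 18.2%), retinoid (16.7% and 16.7%) and prostaglandin lists (14.3% and 14.3%). The prostaglandin list had 2 higher and 2 lower of 14 (1 higher in 5 of the 6 fits without 1 clone library, all but that without A2 library 2), and that of TNF-family, alarmin and growth factor cytokines 4 higher and 7 lower of 19. Several of these small counts rested on 1 library. NRF2 genes called higher numbered 4 without A1 library 1 and 5 without A2 library 3, and p53 genes called higher 3 without A1 library 3. Without A1 library 3 or A2 library 1, sterol genes called lower numbered 2 and glycolysis and hypoxia genes 3. Retinoid genes called lower numbered 0 without A1 library 3 and 1 without A2 library 1 or A2 library 2. Retinoid genes called higher numbered 4 and stress response genes 5 without A2 library 1, stress response genes called lower were 1 or 2 without A2 library 2, A2 library 3, A1 library 1 or A1 library 3, and cytokines of that last list called higher were 2 without A1 library 1, A1 library 2 or A2 library 3.

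The clone difference was measured a second time, in separate libraries, after 6 hours of IL-1b. There 5374 genes (30.7%) were called, 2645 higher and 2729 lower in A2. Of the genes called in both, 4367 went the same way, which was 76.7% of the untreated calls and 81.3% of the calls after IL-1b, and 3 went opposite ways. Of the 5692 genes called untreated, 5616 (98.7%) had the same sign after IL-1b. Across all tested genes, which are not independent of each other, the log2 fold changes without and with IL-1b correlated with Pearson's r = 0.807, and with r = 0.925 over the genes called untreated. All 24 genes with the largest rise or fall were called in the same direction after IL-1b, as were 9 of the 10 most abundant genes named above. Log2 fold changes after IL-1b were −7.95 for Gpc4, 4.33 for Galnt13, 3.81 for Xlr, −3.66 for Col8a1 and −1.57 for Tpm1. Acta2 stood at −2.23, against −3.53 untreated. Ccn3, the exception among the abundant genes, was at 0.65 and was not called (edgeR FDR = 0.16), against 1.34 untreated. Chromosome 17 had a median of 0.47 and chromosome 9 of −0.32.

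The difference between the untreated and the stimulated clone difference was tested as an interaction. No gene passed an edgeR FDR of 0.05, 489 had an unadjusted p under 0.05, DESeq2 called 10, and 30 were called by edgeR with a replicate block. The genes with the smallest adjusted p were Tbx3, Slco3a1 and Sema3a, each at an edgeR FDR of 0.30. Tbx3 was 0.28 untreated and 0.92 after IL-1b, Slco3a1 −0.77 and −0.18, and Sema3a −2.02 and −2.76. The other genes among the 3 leading ones in each direction of the interaction were Tnfaip3, Prkg2 and Sema3e (edgeR FDR 0.32, 0.36 and 0.55), with Tnfaip3 at −1.49 and −0.60. Of the chemokines, Ccl2 was −1.05 untreated and −0.51 stimulated, and Ccl5 −3.02 and 0.13. A p that misses the threshold does not show that these values did not differ.

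**Figure D5:**
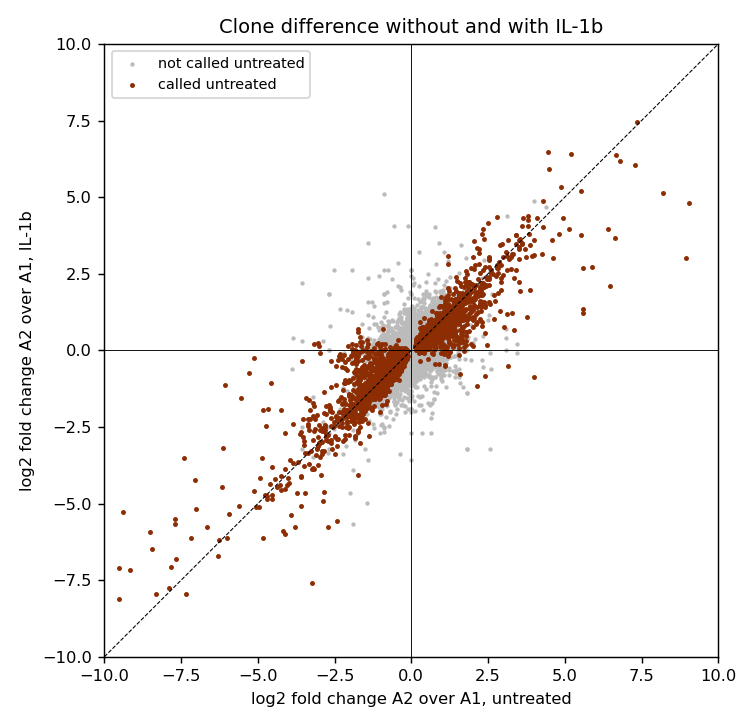
Log2 fold change of clone A2 over A1 for each of 17522 tested genes, in untreated libraries (horizontal) and in libraries stimulated with IL-1b for 6 hours (vertical), with genes called untreated in brown and the others in grey. The brown points follow the dashed line of equal change (r = 0.925), and 98.7% of them keep their sign.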

How the data were processed

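Per the labels and the study's methods, RNA of 24 libraries was sequenced as pairs of 50 bases, trimmed with Trim Galore 0.6.0 and aligned with STAR 2.7.8a to the mouse genome (GRCm38). The deposited values are STAR gene counts, and the authors' column for reads of reverse strand was used. Labels and methods name different library kits, so whether RNA was selected by poly(A) or by depletion of ribosomal RNA was not settled. Pairs outside genes (7.8% to 14.2% in the 6 clone libraries) were left out. The counts of all 24 libraries were fitted together in edgeR 4.0.16 (TMM, ~0 + group, quasi-likelihood, 16 residual degrees of freedom) after filterByExpr, which kept 17522 genes, and adjusted by Benjamini-Hochberg. Alternatives included DESeq2 1.42.0, other scalings and filters, unstranded counts and leaving out each library.

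The members, lists and tests were chosen with earlier results of these data known. Named genes are the 12 with the largest fold change in each direction at 10 CPM or more, the 5 most abundant over 2-fold, genes at 3 counts or fewer in 1 clone, up to 4 leading members of each list in each direction, and the 3 leading interaction genes in each direction. Other list members were named after their values were seen. Some genes that the rule names are not reported here, but they stay in the counts. On simulated data for this comparison (17522 genes), 8% of genes changed 1.25-fold, 50% at 1.5-fold, 58% at 2-fold and 78% at 4-fold were recovered, with 2 false among 99 calls. In that simulation 50 genes changed at each fold, a far smaller share than the 32.5% of genes called between the clones. No effect shared by libraries of a replicate number was put in. The recovery is therefore not that of the real comparison.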

Additional observations from a re-analysis of the deposited data

How the results depend on the processing

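The clones differed in 4438 to 8104 genes under every alternative that kept the null hypothesis of no change, against 5692 in the fit reported, and in 369 when a change over 2-fold was required. Leaving out 1 library gave 4732 to 6116 genes untreated and 4253 to 5507 after IL-1b. Upper quartile scaling gave 3008 higher and 3052 lower, and DESeq2 3083 and 3021. The 5 chromosome medians kept their sign under all alternatives, and without 1 library ranged from 0.45 to 0.48 (chromosome 17), 0.21 to 0.24 (13), −0.39 to −0.35 (18), −0.35 to −0.30 (12) and −0.32 to −0.28 (9). The interaction, with no gene called, gave 10 genes with DESeq2, 147 with no filter on low counts, 30 with a replicate block, 20 without the libraries numbered 1 (a setting chosen after seeing the data), and 0 to 9 without 1 library, the 9 without A2 IL-1b replicate 1. Genes at or under 3 counts in 1 clone numbered 10, and 5 at 0 counts and 27 at 10 counts or fewer.

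The labels do not say what the replicate numbers mark. Deviations of same-numbered A1 and A2 libraries from their group means correlated at 0.28, 0.069 and 0.28, and those of differently numbered ones at −0.28 to 0.03. Over all 84 same-numbered pairs of the 8 groups the correlations were positive, from 0.036 to 0.589. Because 0.069 missed a preset limit of 0.1, the fit reported held no replicate block, although each library correlated best with its own number. Missing that limit does not show that the numbers mark nothing. After IL-1b the A1 and A2 libraries correlated at 0.50, 0.22 and 0.34, and untreated with stimulated libraries at 0.39, 0.13 and 0.32 in A1 and 0.59, 0.22 and 0.44 in A2, so that every pair passed 0.1 there. With a replicate block 8104 genes were called untreated (4054 higher, 4050 lower) and 7787 after IL-1b. Of 284 genes named or picked by the rule for named genes, 59 changed their call under at least 1 of 16 alternatives and none changed direction. Calls of Vegfa, Ptges, Mmp14, Cdkn1c, Ppargc1a and Pde4b were lost in 5 of the 6 fits without 1 library. Chemokines called lower ranged from 5, of the 11 that passed a filter of 10 counts in every library, to 13 with no filter, with none higher in any. Depth limits the precision of genes under 1 CPM, which rest on few read pairs.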
